A study of Rattus norvegicus with 6 samples.

Results

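BRIN-BD11 pancreatic beta cells carried 84 genes that were read at a low level in control cells and at a level at least 8 times higher after MS-275. These genes were chosen by their measured values: a mean of at least 1 CPM over the 3 control libraries, and a mean over the 3 MS-275-treated libraries of at least 8 times that of the controls. CPM, the usual depth-scaled read count, divides the reads on a gene by the total on all genes of its library and multiplies by 1e+06. The 84 were found among 22250 genes in the count tables, of which 12405 reached a control mean of 1 CPM, so they made up 0.677% of the genes expressed by that measure. Since the increase itself chose the genes, its size is given as a description and is not tested.

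BRIN-BD11 is an insulin-secreting line made by electrofusion of RINm5F insulinoma cells with islet cells of New England Deaconess Hospital (NEDH) rats, and it stands here for beta cells as a single tumour-derived line. All 6 libraries came from cells at passage 25. The control group is labelled WT, which names the parental cells without an HDAC inhibitor and not a genotype. The treated group received 5 µM MS-275 for 16 h before RNA was extracted. The study's text describes the controls as vehicle-treated, and the DMSO concentration it gives for them differs from the one the sample labels give for the drug's solvent. Nothing in the labels says that replicates came from separate passages or days, so the spread between them may be technical.

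MS-275, also called entinostat, is a benzamide that inhibits class I histone deacetylases. These enzymes remove acetyl groups from histone tails and work in corepressor complexes at promoters and enhancers. When they are inhibited, acetylation of histones rises, and many genes that are held at a low level are transcribed more, while others fall. The comparison of MS-275 with control asks which transcripts of the beta cell line responded to this inhibition.

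The count tables list genes by Ensembl identifier alone, and 0 of these identifiers could be paired with a symbol through the RefSeq gene table. The 84 genes are therefore described by their levels, their ratios and their spread, and only 2 of them are given by identifier. Functions, gene families and promoter sequences were not analysed here, and neither were beta cell markers or markers of other cell types. CPM is not divided by transcript length, so the order of genes by CPM is an order of reads and not of molecules. In bulk RNA, more transcripts in every cell and more cells that transcribe a gene cannot be told apart.

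The libraries held between 5230555 and 9172422 reads on genes. Each gene of the 84 had between 22 and 431 reads over the 3 controls, with a median of 44, and between 166 and 3914 over the 3 MS-275-treated libraries, with a median of 548.5. In 5 of the 84 at least 1 control library had 3 reads or fewer, and none had a control library without reads. By read counts alone, the control side therefore limited the precision of the ratios more than the treated side. Spread between libraries bore on both sides. Leaving out single control libraries took between 3 and 10 of the 84 under 8-fold, and single treated libraries between 2 and 10.

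In the controls, the means of the 84 genes ran from 1.00 to 20.1 CPM with a median of 1.998, and 42 of the genes lay under 2 CPM. A further 27 lay between 2 and 5 CPM, 11 between 5 and 10, and 4 above 10. The median of all 12405 expressed genes was 35.9 CPM, and 0 of the 84 reached it. In the MS-275-treated libraries the means ran from 8.92 to 202 CPM with a median of 28.0, and 35 of the 84 exceeded 33.5 CPM, the median of the expressed genes after treatment. Among the expressed genes, the median rank of the 84 was at the 5.20 percentile in the controls and at the 44.6 percentile with MS-275. By median rank they thus went from the bottom of the expressed range to its middle. Of the 84, 6 had an MS-275 mean of at least 100 CPM, above 79.0 CPM, the upper quartile of the expressed genes after treatment. A rise was fixed by the rule, so the change in rank is a description only.

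**Figure D1:**
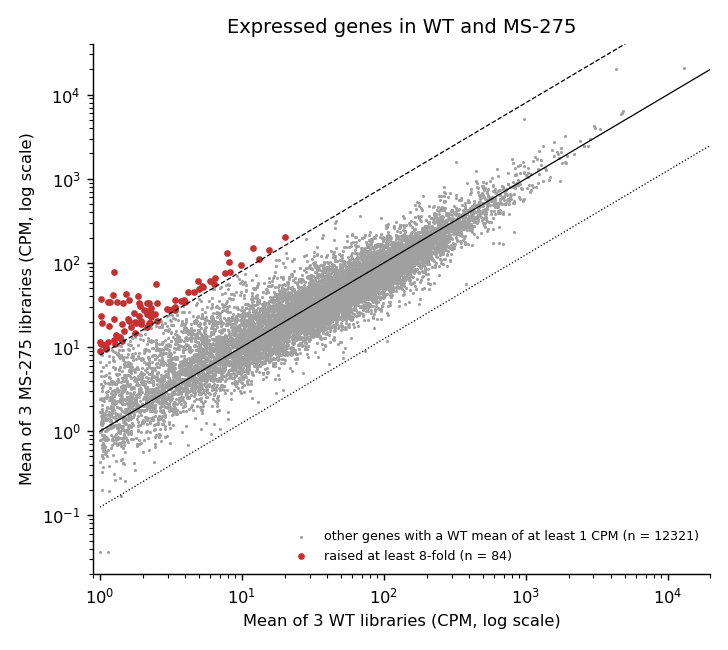
Mean CPM over the 3 WT libraries (x axis, log scale) and over the 3 MS-275-treated libraries (y axis, log scale) for 12405 genes with a WT mean of at least 1 CPM; a point is a gene, the solid line marks equal means and the dashed and dotted lines an 8-fold higher and 8-fold lower mean. The 84 red genes sit at WT means from 1.00 to 20.1 CPM, at the left edge of the cloud.

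The ratio of the MS-275 mean to the control mean ran from 8.10 to 62.2 over the 84 genes, with a median of 10.5 and quartiles of 9.52 and 13.9. In 32 genes it was under 10, in 16 it was at least 16 and in 3 at least 32. The set was therefore concentrated near its limit, with a small group far above it. On the log2 scale the ratios spanned 3.02 to 5.96, with a median of 3.40.

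The 6 genes with an MS-275 mean above 100 CPM took 25.8% of all reads on the 84 genes in the treated libraries. The first of them was ENSRNOG00000007456, with 23.4, 17.8 and 19.15 CPM in control replicates 1, 2 and 3, and 223, 211 and 172 CPM in MS-275 replicates 1, 2 and 3. Its means were 20.1 ± 2.91 CPM in the controls and 202 ± 26.96 CPM with MS-275 (SD, n = 3 each), a ratio of 10.05. It was the gene with the highest mean of the 84 in both groups. From its 431 control reads and 3914 treated reads, the ratio of pooled reads was 9.74 with a 95% exact interval of 8.81 to 10.8, which covers counting error only.

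The second gene by MS-275 mean had 15.1, 11.0 and 9.84 CPM in the controls and 180, 145 and 124 CPM with MS-275, a ratio of 12.5. The third had 20.1, 11.0 and 15.3 CPM in the controls and 161, 145 and 117 CPM with MS-275, a ratio of 9.12. The fourth had 10.1, 5.76 and 7.73 CPM in the controls and 176, 132 and 85.1 CPM with MS-275, a ratio of 16.7. In each of these 3 genes control replicate 1 was the highest control and MS-275 replicate 3 the lowest treated library, and the groups stayed far apart. The fifth had 13.5, 11.7 and 14.6 CPM in the controls and 123.4, 118 and 92.6 CPM with MS-275, a ratio of 8.39. The sixth had 10.6, 7.27 and 6.32 CPM in the controls and 109, 101 and 96.2 CPM with MS-275, a ratio of 12.6. The fifth and the sixth again had their lowest treated value in MS-275 replicate 3. The next 6 genes by MS-275 mean lay between 61.0 and 94.1 CPM after treatment. Apart from the eighth, described next, their control means ran from 6.01 to 9.85 CPM and their ratios from 9.52 to 10.2. The eleventh was the exception in the order of libraries, with 68.6, 57.9 and 69.8 CPM with MS-275, so that replicate 3 was the highest.

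The largest ratio belonged to ENSRNOG00000019018. Its control libraries held 17, 4 and 6 reads, or 2.21, 0.501 and 1.05 CPM, and its MS-275-treated libraries 515, 407 and 578 reads, or 93.0, 77.8 and 63.0 CPM. Its mean went from 1.254 ± 0.871 CPM to 78.0 ± 15.0 CPM (SD, n = 3 each), a ratio of 62.2. The lowest treated library was 28.5 times the highest control. Control replicate 1 held 17 of its 27 control reads, and without that library the ratio was 100.3. The 95% exact interval of its pooled ratio was 40.8 to 90.7, for counting error only, and with single libraries left out the ratio of means ran from 47.8 to 100.3. By mean CPM it was the eighth of the 84 after treatment and the 68th in the controls.

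The next largest ratios were 37.2 and 33.2. The gene with the ratio of 37.2 had 0.649, 1.503 and 0.878 CPM in the controls and 37.8, 39.8 and 35.1 CPM with MS-275. The gene with the ratio of 33.2 had 1.82, 1.38 and 0.527 CPM in the controls and 35.2, 48.4 and 40.01 CPM with MS-275. The treated values of the first lay within 1.13-fold of each other, so its ratio was uncertain through the 22 control reads and not through the treated side. The fourth to the eighth largest ratios ran from 29.8 down to 23.1, in genes with control means between 1.14 and 1.52 CPM and MS-275 means between 33.3 and 42.3 CPM. In all 5, MS-275 replicate 3 was the lowest treated library, between 21.2 and 30.2 CPM. Of the 16 genes with a ratio of at least 16, 14 had a control mean under 2 CPM. The exception with the highest control level was the fourth gene by MS-275 mean, at 7.87 CPM in the controls. The MS-275 means of these 16 genes ran from 19.11 to 131 CPM with a median of 35.4.

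By control level, the median ratio was 11.9 in the 42 genes between 1 and 2 CPM, 9.96 in the 27 between 2 and 5, 10.0 in the 11 between 5 and 10 and 9.58 in the 4 above 10. The highest ratio in each class was 62.2, 22.6, 16.7 and 12.5. The control mean stands in the denominator of the ratio, so a low control value raises both the ratio and the chance of being in the lowest class, and the order of these classes is a description only. By MS-275 level, the 26 genes under 20 CPM had a median ratio of 9.84, the 41 between 20 and 50 CPM one of 12.7, the 11 between 50 and 100 CPM one of 10.2 and the 6 above 100 CPM one of 11.3. The ratio did not climb from class to class with the level after treatment. With a control mean of at least 1 CPM, the ratio cannot exceed the MS-275 mean in CPM. The order of these classes is therefore also a description only.

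**Figure D2:**
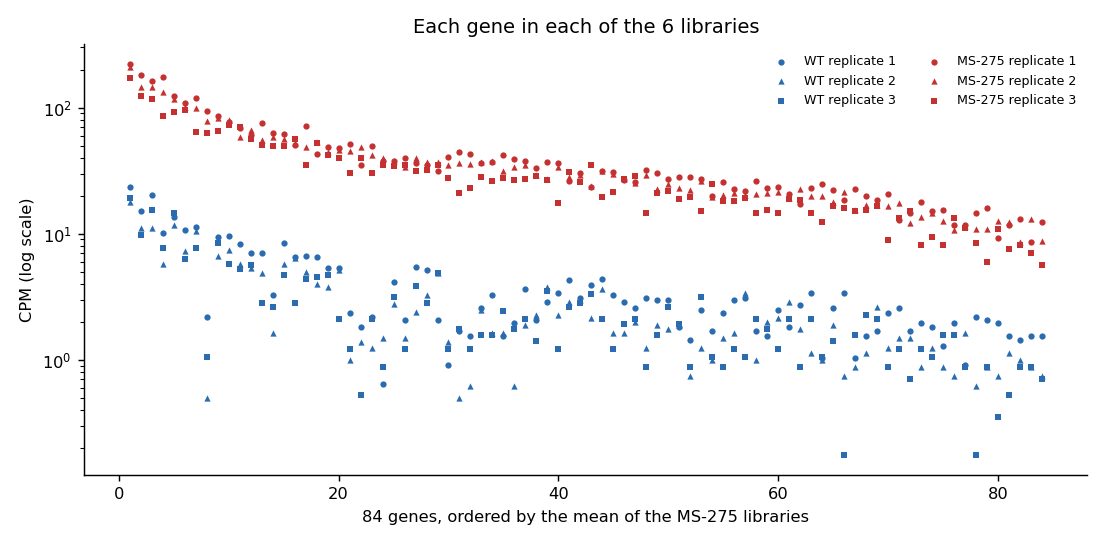
CPM (y axis, log scale) of each of the 84 genes in the 6 libraries, with genes ordered along the x axis by their MS-275 mean; blue marks are WT, red marks MS-275, and the shape gives the replicate. The red and blue marks of a gene did not overlap in 84 of 84 genes, and the lowest red mark was between 2.89 and 28.5 times the highest blue mark.

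In 84 of the 84 genes the treated and control libraries did not overlap, and over all 12596 genes that could be tested the treated libraries were all above the controls in 30.7%. All 84 were called higher by edgeR's quasi-likelihood test at an adjusted p under 0.05 and a log2 fold change of at least 1, and 13.9% of the tested genes were called higher. Both counts follow from the choice of the genes on the same contrast, so nothing is read from them. The gap between the groups comes from the same values and is likewise a description: the lowest treated library was a median of 6.92 times the highest control. It was at least 4 times the highest control in 80 of the 84 genes and at least 8 times in 28. The narrowest gap, 2.89-fold, was that of a gene with 2.08, 0.877 and 0.878 CPM in the controls and 16.1, 10.9 and 6.00 CPM with MS-275.

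To measure the increase in libraries that had no part in choosing the genes, the same rule was applied to 2 control and 2 treated libraries and the ratio was read in the pair left out. The labels do not pair the libraries, and the pairs left out simply carried the same number. Without the replicates numbered 1, the rule chose 95 genes, and in the left-out pair their median ratio was 8.96, against 10.7 in the libraries that chose them. Without the replicates numbered 2, it chose 80 genes with a left-out median of 13.0 against 9.98, and without those numbered 3 it chose 95 genes with a left-out median of 11.4 against 10.2. Over all 3 choices the left-out median was 10.8, and the 3 medians had an SD of 2.02. The choices shared libraries and many genes, so this SD is not a spread between independent replicates. In the left-out pair 54 of 95, 70 of 80 and 69 of 95 genes were again at 8-fold or more, and 92 of 95, 80 of 80 and 95 of 95 were at 4-fold or more. The lowest left-out ratio of any gene was 3.44. The median over all expressed genes in these left-out pairs was between 0.927 and 0.943. For the genes so chosen, a large increase was thus seen again in libraries not used for the choice. The exact 8-fold limit was met again by 56.8% to 87.5% of them. With a single library on each side there is no test of these values.

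**Figure D3:**
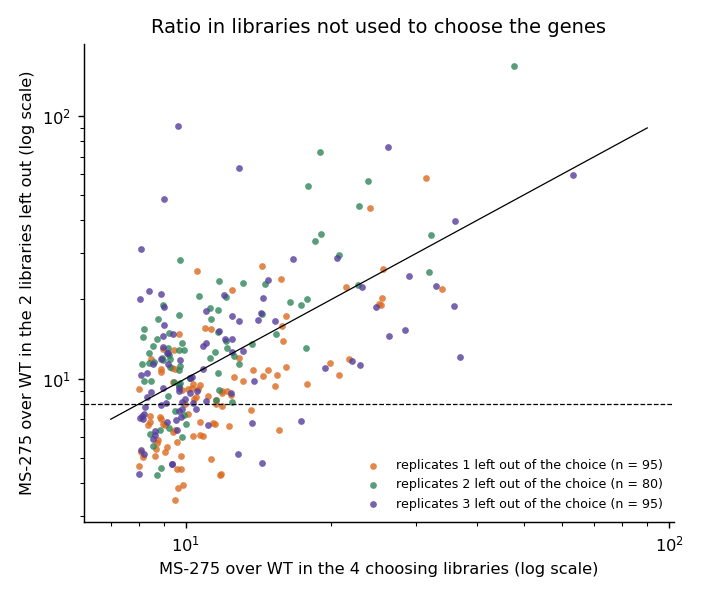
Ratio of MS-275 to WT in the 4 libraries that chose a gene (x axis, log scale) against the ratio in the 2 libraries left out (y axis, log scale); a point is a gene in 1 of 3 choices, the solid line marks equal ratios and the dashed line 8-fold. The lowest point lies at 3.44, and the left-out medians were 8.96, 13.0 and 11.4.

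Many of the 84 genes lay close to a limit of the rule. The 95% exact counting interval of the pooled ratio began at 8 or above in 42 of the 84 genes and below 8 in the other 42. Pooling weights each library by its depth, so this ratio is not the ratio of means that the rule used. In the gene nearest to the 8-fold limit the pooled ratio was 7.39 and the ratio of means 8.10. With each library left out in turn, 53 of the 84 met the rule every time, with ratios in the full data from 9.27 to 29.3 and a median of 11.5. The other 31 were lost at least once, 21 of them through a ratio under 8 and 15 through a control mean under 1 CPM, with 5 counted under both. The gene with the largest ratio was among these 31, since its control mean without replicate 1 was 0.778 CPM. No ratio of any of the 84 fell under 6.29 in these 6 choices. The 31 were lost by passing a limit of the rule. The libraries that remained had also chosen the genes, so these choices cannot say whether an increase would vanish in other libraries.

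Just inside the 8-fold limit lay 3 genes with ratios of 8.10, 8.10 and 8.12. The gene nearest to the limit had 4.42, 3.63 and 2.11 CPM in the controls and 31.4, 31.4 and 19.5 CPM with MS-275. Just outside lay genes with ratios of 7.99, 7.93 and 7.92, the nearest with 4.80, 2.88 and 3.86 CPM in the controls and 27.6, 32.3 and 32.4 CPM with MS-275. The values on either side of this limit were alike. Just inside the limit on the control level lay genes with control means of 1.00, 1.00 and 1.01 CPM and ratios of 11.3, 8.88 and 37.2. Just outside it were genes with control means of 0.962, 0.956 and 0.952 CPM and ratios of 9.87, 13.8 and 13.97. Another 54 genes with a control mean under 1 CPM were at least 8-fold higher with MS-275 and reached at least 8 CPM there, with a median of 11.9 CPM against 28.0 CPM for the 84.

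The share of genes that were at least 8-fold higher with MS-275 was lower at higher control levels. It was 6.50% of 646 genes between 1 and 2 CPM, 2.61% of 1036 between 2 and 5 CPM, 1.02% of 1081 between 5 and 10 CPM, 0.184% of 1631 between 10 and 20 CPM and 0.0336% of 2973 between 20 and 50 CPM. Of the 5038 genes at 50 CPM or more, 0 were at least 8-fold higher. These shares use the same control libraries for the level and for the ratio. When the level was read in 1 control library and the ratio was taken over the other 2, the share was between 6.29% and 9.54% at 1 to 2 CPM, between 1.97% and 5.91% at 2 to 5 CPM, and between 0.866% and 1.87% at 5 to 10 CPM. At 50 CPM or more it was again 0 of 5004 to 5012 genes. The same order by control level was there when the level and the ratio came from different control libraries.

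**Figure D4:**
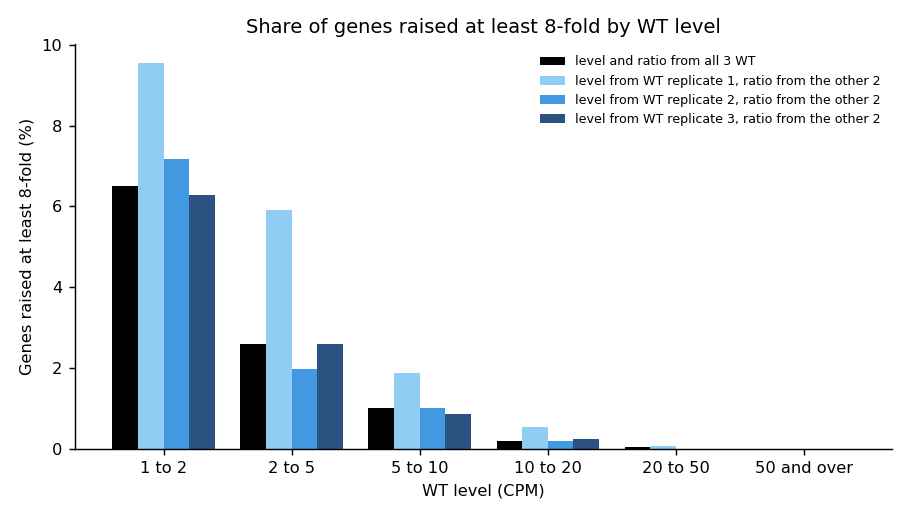
Percentage of genes raised at least 8-fold (y axis) by control level in CPM (x axis), with black bars for level and ratio from all 3 WT libraries and blue bars for the level from 1 WT library and the ratio from the other 2. The black bars go from 6.50% at 1 to 2 CPM to 0% at 50 CPM and over, and the blue bars fall in the same way.

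The opposite change of the same size was rare. Under the mirrored rule, with an MS-275 mean of at least 1 CPM and a control mean at least 8 times higher, 2 genes were found against the 84 genes that met the rule itself. They had control means of 105 and 73.8 CPM and MS-275 means of 11.6 and 8.90 CPM. The control is the higher group by this rule, so its means compare with the MS-275 means of the 84. Those ran from 8.92 to 202 CPM, a range that holds both control means. In both lowered genes, control replicate 1, at 43.1 and 30.4 CPM, was under the other controls, which lay between 92.7 and 136 CPM. A band of 257 genes was raised 4-fold to under 8-fold, so that the 84 made up 24.6% of the 341 expressed genes raised at least 4-fold. The 257 had a median control mean of 3.38 CPM and a median MS-275 mean of 18.9 CPM, and their median rank among expressed genes was at the 9.65 percentile in the controls and the 33.4 percentile with MS-275. The highest control mean in the band was 4356 CPM, whereas none of the 84 exceeded 20.1 CPM.

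Added together, the 84 genes took 0.0276% ± 0.00579 of the control reads on genes and 0.323% ± 0.0453 of the treated reads (SD, n = 3 each). The shares in control replicates 1, 2 and 3 were 0.0342%, 0.0244% and 0.0240%, and those in MS-275 replicates 1, 2 and 3 were 0.364%, 0.331% and 0.275%. Control replicate 1 was therefore above the other controls, and MS-275 replicate 3 below the other treated libraries. Each group was spread in the direction of the other.

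This held gene by gene and not only for the sum. Control replicate 1 was the highest control in 64 of the 84 genes (76.2%), against 40.9% of the 12321 expressed genes outside the set. MS-275 replicate 3 was the lowest treated library in 68 of the 84 (81.0%), against 35.3% of the genes outside the set, and 49 of the 84 showed both. In the median of the 84 genes, control replicate 1 was 0.58 higher on the log2 scale than the mean of the other two controls, and MS-275 replicate 3 differed by -0.34 from the mean of the other two treated libraries. Outside the set these differences were 0.02 and 0.01. In the genes at least 2.5-fold lower with MS-275 they were -0.09 and 0.23. Differences of opposite sign can offset one another in a median, so the values outside the set do not show that these libraries matched the others there. The 257 genes raised 4-fold to under 8-fold had control replicate 1 highest in 70.0% and MS-275 replicate 3 lowest in 63.8%.

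**Figure D5:**
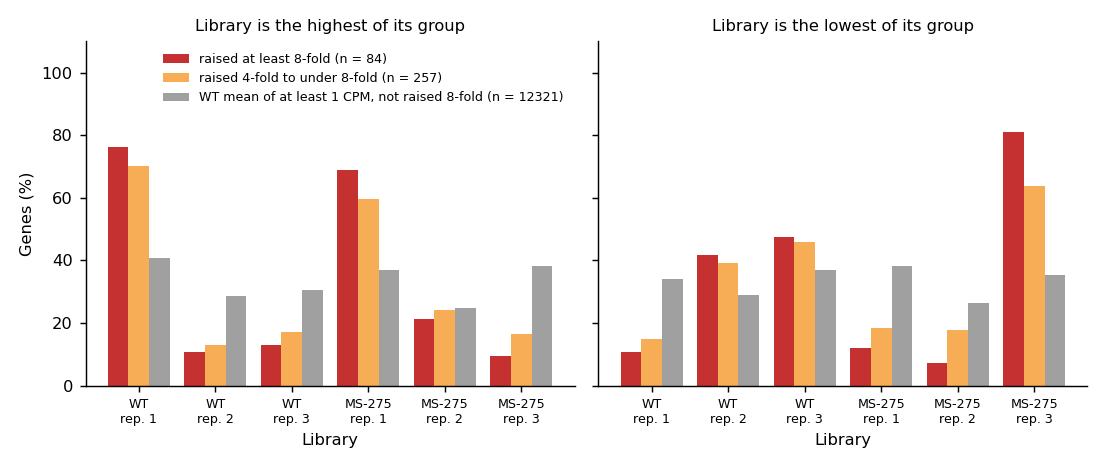
Percentage of genes (y axis) for which each library (x axis) was the highest (left) or the lowest (right) of the 3 in its group, for the 84 genes (red), the 257 genes raised 4-fold to under 8-fold (orange) and all expressed genes outside the 84 (grey). WT replicate 1 was highest in 76.2% and MS-275 replicate 3 lowest in 81.0% of the 84 genes.

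Measured against the gap between the groups, control replicate 1 stood a median of 3.96% of the way from the other controls toward the MS-275 mean over the 84 genes, with quartiles of 1.74% and 5.94%. MS-275 replicate 3 stood 22.8% of the way from the other treated libraries toward the control mean, with quartiles of 9.13% and 36.8%. In 304 genes that were at least 2.5-fold lower with MS-275, at a treated mean of at least 1 CPM, the same measures were 8.35% and 7.46%, also toward the other group. Of these 304, control replicate 1 was the lowest control in 53.6% and MS-275 replicate 3 the highest treated library in 65.1%. In the 257 genes raised 4-fold to under 8-fold they were 6.25% and 17.7%. The lean of these libraries toward the other group was thus not particular to the 84 genes, and its cause was not tested. Over the 12321 expressed genes outside the set the medians were 11.3% and 13.4%. Where the groups differ little, this measure divides by a small gap, so these 2 medians cannot be set beside those of the 84. Without control replicate 1, 106 genes met the rule and the median ratio of the 84 was 12.4. Without MS-275 replicate 3, 98 genes met it and the median ratio was 11.2. Without both, 126 genes met it, 69 of them among the 84, and the median ratio of the 84 was 13.4.

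The 84 genes also varied more within a group than other genes read at the same level. Between 1 and 2 CPM in the controls, the median coefficient of variation over the 3 controls was 40.4% in the 42 genes and 30.4% in 604 others. It was 33.8% and 21.0% between 2 and 5 CPM, and 25.3% and 15.4% between 5 and 10 CPM. In the treated libraries it was 22.8% and 13.0% at 8 to 20 CPM, and 16.7% and 9.73% at 20 to 50 CPM. Both groups include a library that stood apart for these genes. Between control replicates 2 and 3 alone, the median absolute difference on the log2 scale was 0.68 in the set and 0.46 in the others at 1 to 2 CPM, and 0.38 and 0.31 at 2 to 5 CPM. Between MS-275 replicates 1 and 2 alone, it was 0.29 and 0.21 at 8 to 20 CPM, 0.13 and 0.15 at 20 to 50 CPM, 0.14 and 0.12 at 50 to 100 CPM, and 0.13 and 0.10 at 100 to 300 CPM, so that the set differed less than the others in 1 of these 4 classes. These are medians over genes of the same 6 libraries and carry no test. The spread was read from the values that chose the 84, so the comparison is a description only. The other genes include those raised 4-fold to under 8-fold, which were not shown apart.

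Within the treated group, the highest library was a median of 1.38 times the lowest, and in 10 of the 84 genes it was more than 2 times the lowest. The closest was a gene with 26.7, 27.3 and 27.3 CPM. The widest was the gene with 16.1, 10.9 and 6.00 CPM, followed by one with 20.6, 16.4 and 8.94 CPM and one with 17.9, 13.6 and 8.18 CPM. In all 3 of the widest, MS-275 replicate 3 was the lowest. Not every gene followed that order, since MS-275 replicate 3 was the highest treated library in 8 of the 84, among them a gene with 23.5, 24.1 and 35.2 CPM.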

How the data were processed

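RNA from 3 control and 3 MS-275-treated cultures was analysed, grouped by the sample labels. The authors screened out contaminating reads (bowtie2), mapped what remained with STAR to the Rnor_6.0 build and deposited raw counts per gene for each library. featureCounts is given as the counter, although each table closes with 5 summary lines of the htseq-count kind. These lines name no gene and were dropped, and they left between 29.2% and 31.4% of the alignments on genes. Between 60.2% and 61.9% of the alignments in a library were counted on no annotated feature. A deposited table of the authors' own DESeq2 comparison (group means, fold changes and p-values) was not used. Strandedness and the annotation release are not given in the sources used here, so genes that overlap or have near-identical copies are uncertain.

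CPM was the count divided by the library total on genes. Calls came from edgeR 4.0.16 in R 4.3.3 (filterByExpr, TMM, quasi-likelihood test without a block, Benjamini-Hochberg) over 12596 genes. The fitting code was run on simulated counts with the same dispersion for every gene and no library that stood apart. That run checks the code and not the calls on these libraries. Exact intervals are Clopper-Pearson intervals on pooled reads. Log2 differences between libraries used CPM plus 0.1. Replicates were no copies of one another, since chi-square per degree of freedom was between 1.76 and 10.5. It was lowest between control replicates 2 and 3 and highest between MS-275 replicates 1 and 3. Alternatives covered scaling, DESeq2 1.42.0, filtering, the limits of the rule, the block and each library left out.

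The members and lists were chosen with earlier results of these data known. The genes to describe were the 12 with the highest MS-275 mean, the 8 with the largest ratio, the 3 with the widest treated spread, any with overlapping groups (0 found) and the 3 nearest to each limit on either side. The gene with the closest treated libraries, the examples with MS-275 replicate 3 highest and the 2 genes of the mirrored rule were chosen after their values were seen. Gene lists, marker lists and promoters need gene symbols and were not analysed here, and identifiers were limited to 2.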

Additional observations from a re-analysis of the deposited data

How the results depend on the processing

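The number of genes meeting the rule moved most with the limits themselves. It was 159 at a ratio of at least 6 and 52 at a ratio of at least 10, and 138 with a control mean of at least 0.5 CPM and 42 with one of at least 2 CPM, in place of 84. Scaling mattered less, with 91 genes under TMM (79 shared with the 84) and 90 under DESeq2 size factors (79 shared), and 94 genes when medians replaced means (70 shared). Leaving out single libraries gave between 75 and 106 genes. The median ratio of the 84 was 10.5, and between 9.82 and 12.4 with a library left out, the highest without control replicate 1, and 13.4 without both control replicate 1 and MS-275 replicate 3, a setting chosen after seeing the data. It was 11.0 under TMM and under DESeq2 size factors. The left-out ratio of 10.8 was 10.9 under TMM and 9.73 with a control mean of at least 2 CPM. Without control replicate 1 the ratio moved by over 1.5 times in 5 of the 84 genes, to between 19.8 and 100.3.

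All 84 were called higher under each of the 12 alternative fits. That count follows from the choice of the genes on the same contrast, so nothing is read from it. Over these fits between 1646 and 2288 genes were called higher and between 513 and 827 lower. The main fit called 1754 higher, 13.9% of the 12596 genes tested, and 650 lower. The labels do not pair the libraries by their replicate numbers. The deviations of same-numbered libraries correlated at 0.17, -0.02 and 0.13, which cannot show whether same-numbered cultures were handled together. A fit with a replicate block called 2437 genes, of which 1763 were higher and 674 lower. Depth limits the control side, where 52 of the 84 genes had fewer than 50 reads. The alternatives set for gene lists and for promoters were not run, since the identifiers are not paired with symbols.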
